A study of Mus musculus with 9 samples.

Results

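Ngfr, Bdnf and Sort1 encode the neurotrophin receptor p75NTR, the neurotrophin BDNF and the co-receptor sortilin. They were followed here in the mouse myoblast line C2C12, in which the RNA-binding protein genes Cugbp1 or Mbnl1 had been silenced with siRNA. Each of the 9 exon arrays measured the total RNA of 1 sample 48 h after transfection. The groups were Cugbp1 siRNA, Mbnl1 siRNA and control siRNA, with 3 arrays each, and all cells were grown with 10% serum. Ngfr was selected on its own measured values, for a higher level after Cugbp1 siRNA but not after Mbnl1 siRNA, so its values are a description and carry no test. Bdnf and Sort1 were taken as its ligand and co-receptor. Their probe sets (small groups of probes, most of them within 1 exon) were those that the array annotation gives to exactly 1 gene symbol. These were 9 probe sets for Ngfr, 20 for Bdnf and 62 for Sort1, which is 91 of the 1195555 on the array.

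Neurotrophins are secreted growth factors that are made as longer precursors and cleaved to mature forms. Mature BDNF signals mainly through the tyrosine kinase receptor TrkB. Its precursor, proBDNF, binds p75NTR together with sortilin, a sorting receptor of the Vps10p-domain family, and p75NTR passes the signal on through cytoplasmic adaptors and through cleavage of its own membrane domain. In muscle, p75NTR and BDNF are known from myoblasts and satellite cells, and sortilin from the traffic of the glucose transporter GLUT4.

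Each siRNA lowered its target. Celf1, the current name of Cugbp1, was at 36.4% of the control level after Cugbp1 siRNA (95% interval 33.2% to 39.8%), and Mbnl1 was at 39.3% after Mbnl1 siRNA (36.5% to 42.4%). The arrays had median intensities of 42.3 to 43.8, and their number sets the precision. On the main axis of variation over all genes (54.2% of the variance) every array with Cugbp1 or Mbnl1 siRNA lay at -11.2 to -2.16 and every control array at 14.5 to 16.7. Of 7 myoblast markers, 6 were measured, Myod1 among them at log2 levels of 9.56 to 9.94 over all arrays. Their summed intensity was 12188 to 12381 after Cugbp1 siRNA, 11401 to 12586 after Mbnl1 siRNA and 11782 to 12030 in control cells. These sums are of linear values, so they mostly reflect Chrna1 and Des and say little of the other markers. In control cells the mean log2 levels were 12.3 for Chrna1 and 11.9 for Des, and from 7.71 (Pax7) to 10.2 (Myf5) for the others. Myod1 and Cdh15 rose after Cugbp1 siRNA, by 0.30 and 0.32 (limma adjusted p = 0.0142 and 0.00602), and Myf5 fell by 0.28 after Mbnl1 siRNA (adjusted p = 0.0147), while it differed from control by -0.09 after Cugbp1 siRNA and was not called. The part of these markers in the Ngfr level was not tested. Ngfr is also a gene of Schwann cells and the neural crest. Of 7 markers of those cells, 3 were measured (Sox10, Erbb3 and Pou3f1), none was called in any comparison, and their summed intensity was 651 to 718 after Cugbp1 siRNA, 660 to 697 after Mbnl1 siRNA and 639 to 757 in control cells. Sums over the measured macrophage markers (4 of 5) were 955 to 1052 after Cugbp1 siRNA, 1141 to 1188 after Mbnl1 siRNA and 1163 to 1215 in control cells, and over endothelial markers (2 of 4) 338 to 371, 329 to 364 and 406 to 438 in the same order.

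Ngfr stood higher on every Cugbp1 siRNA array than on any other array. Its gene value, a robust summary of its probe sets on a log2 scale, was 9.09, 9.13 and 8.85 after Cugbp1 siRNA, 8.03, 8.11 and 8.18 after Mbnl1 siRNA and 8.08, 8.08 and 8.21 in control cells. The 3 Cugbp1 siRNA arrays therefore lay above the other 6 with no overlap, while the Mbnl1 siRNA and control arrays overlapped. The means were 9.02 ± 0.15 after Cugbp1 siRNA, 8.11 ± 0.07 after Mbnl1 siRNA and 8.12 ± 0.08 in control cells (SD, n = 3 each). In order of level, Cugbp1 siRNA came first, and Mbnl1 siRNA and control did not differ beyond their spread. Ngfr was 0.90 above control after Cugbp1 siRNA on the log2 scale, which is 1.87-fold, and 0.02 below it after Mbnl1 siRNA. The direct difference between the siRNAs was 0.92, or 1.89-fold.

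Counted from the largest rise over control, with falls ranked below all rises, Ngfr ranked 10 of 12646 genes after Cugbp1 siRNA. By the difference between Cugbp1 and Mbnl1 siRNA, counted in the same way, it ranked 4 of 12646. The pattern it was chosen for was a higher level after Cugbp1 siRNA than in control and than after Mbnl1 siRNA, with no call between Mbnl1 siRNA and control. Defined by limma calls at an adjusted p under 0.05, it was met by 234 genes, or 1.85%. Among them Ngfr had the largest difference between the siRNAs. Ngfr was chosen on these values, so its place among the 234 is no test, and nothing is read from its ranks. In total RNA of a culture, more cells with Ngfr RNA and more Ngfr RNA per cell cannot be told apart.

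**Figure D1:**
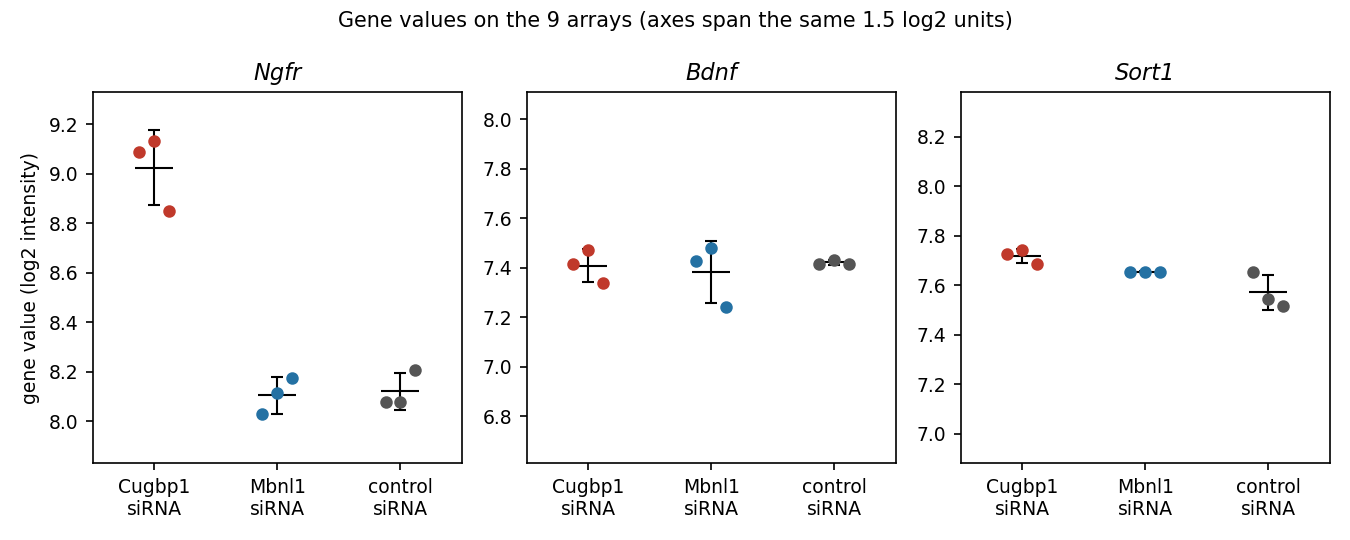
Gene values (log2 intensity) of Ngfr, Bdnf and Sort1 on each array after Cugbp1 siRNA, Mbnl1 siRNA and control siRNA, with points for arrays, the long line for the mean and bars for the SD (n = 3). The axes differ in position but span the same length; the Ngfr points after Cugbp1 siRNA lie at 8.85 to 9.13 above all others, while the groups of Bdnf overlap and Sort1 shifts by 0.15.

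The higher Ngfr level was uneven over the gene. All 9 probe sets were above the filter on dim signal, a mean log2 intensity of 7.00 over the 9 arrays, although 2 of them (4320167 and 5199882) would not have reached it on the control mean alone. Set against control, 7 of the 9 were higher after Cugbp1 siRNA with no overlap of the arrays, and 2 overlapped. Such a non-overlapping higher level was found for 23.7% of all 168803 probe sets of single genes above the filter, and a lower one for 10.5%. Since Ngfr was chosen in this contrast, nothing is read from that count. The differences from control ranged from -0.13 to 1.71 with a median of 1.01, and 5 were at least 2-fold. Both probe sets below the filter on the control mean are among these 5 and enter the median. They also enter the Ngfr gene value and its difference from control. No weight is therefore put on the median or on the count of 5.

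Probe set 4677151 showed the largest difference. It read 9.84, 9.91 and 9.98 after Cugbp1 siRNA, 8.43, 8.48 and 8.74 after Mbnl1 siRNA and 8.09, 8.50 and 8.03 in control cells, so that the Cugbp1 siRNA arrays stood 1.71, or 3.26-fold, above control. Probe set 5168545 read 8.98, 8.73 and 8.98 after Cugbp1 siRNA, 7.55, 7.73 and 7.81 after Mbnl1 siRNA and 7.46, 7.63 and 7.50 in control cells, a difference from control of 1.37. Together with 5199882 (1.43), 4320167 (1.28) and 5335889 (1.01), these made up the 5 probe sets past 2-fold. In each of the 5 the lowest Cugbp1 siRNA array lay above the highest array of the other groups. Since 5199882 and 4320167 were below the filter on the control mean, no weight is put on them. Smaller differences came from 4583018 (0.53) and 5260797 (0.22).

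The other 2 Ngfr probe sets did not follow. Probe set 5538027 read 8.61, 8.44 and 8.28 after Cugbp1 siRNA, 8.29, 8.62 and 8.28 after Mbnl1 siRNA and 8.64, 8.47 and 8.49 in control cells. Probe set 4493965 read 7.68, 7.73 and 7.78 after Cugbp1 siRNA, 7.46, 7.38 and 7.61 after Mbnl1 siRNA and 8.07, 7.77 and 7.74 in control cells. In both the Cugbp1 siRNA and control arrays overlapped, with mean differences of -0.09 and -0.13. Which exons these probe sets cover was not analysed here.

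After Mbnl1 siRNA the Ngfr probe sets stayed near control, with differences from -0.38 to 0.35. None was higher than control with no overlap, and 2 were lower, where the shares of all probe sets above the filter were 28.9% and 13.8%. Set directly against Mbnl1 siRNA, all 9 had a higher mean after Cugbp1 siRNA, and in 8 the arrays did not overlap. Of all probe sets above the filter, 10.6% were higher and 10.9% lower in that way. This contrast was also part of the choice of Ngfr.

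**Figure D2:**
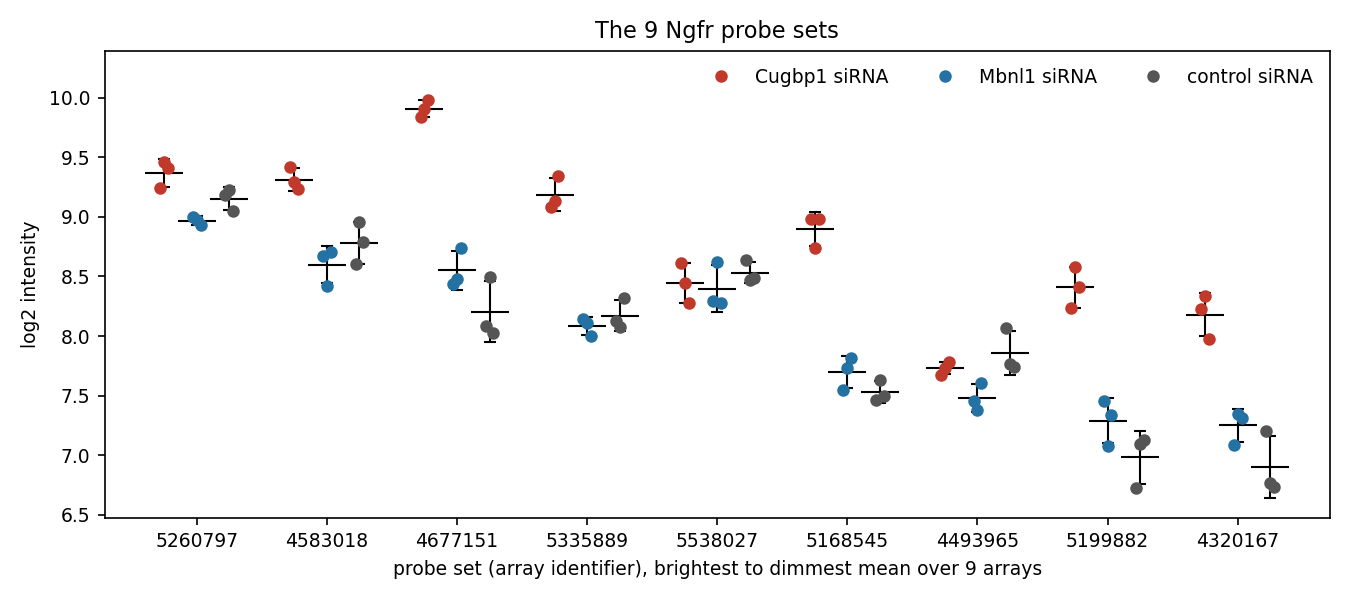
Log2 intensity of the 9 Ngfr probe sets on each array, ordered by mean level, with points for arrays, long lines for means and bars for the SD (n = 3), for Cugbp1 siRNA, Mbnl1 siRNA and control siRNA. In 7 probe sets the 3 Cugbp1 siRNA points stand clear above control, by 0.22 to 1.71 on average, and in 5538027 and 4493965 they do not.

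The genes whose values ran most like Ngfr over the 9 arrays were looked up among the 2615 genes with a range of at least 0.5 log2. They were F2r, the thrombin receptor (Pearson r = 0.977), the zinc finger gene Zfp101 (0.946), the mast cell protease gene Mcpt8 (0.944), the lipid phosphate phosphatase gene Plpp3 (0.944) and Dis3, a nuclease of the RNA exosome (0.941). The 9 points fall into groups and share their arrays, so these are descriptions. F2r read 11.11, 11.04 and 11.05 after Cugbp1 siRNA, 10.48, 10.54 and 10.47 after Mbnl1 siRNA and 10.55, 10.51 and 10.62 in control cells. Its gene value was thus 0.51 above control after Cugbp1 siRNA and 0.06 below it after Mbnl1 siRNA, a smaller step than that of Ngfr with the same order of groups. Zfp101 stood 1.00 above control after Cugbp1 siRNA, and also 0.22 above it after Mbnl1 siRNA.

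For Bdnf, the ligand, no change of the gene value was called. It read 7.42, 7.47 and 7.34 after Cugbp1 siRNA, 7.43, 7.48 and 7.24 after Mbnl1 siRNA and 7.42, 7.43 and 7.42 in control cells. The siRNA arrays lay on both sides of the controls. The difference from control was -0.01 after Cugbp1 siRNA (95% interval -0.15 to 0.13, limma adjusted p = 0.882) and -0.04 after Mbnl1 siRNA (-0.18 to 0.10, adjusted p = 0.641), and between the siRNAs it was 0.03 (-0.11 to 0.17, adjusted p = 0.850). For the gene value, these intervals leave room for a change of about 1.1-fold in either direction. They do not bound the change of single probe sets, which differed from each other. By its mean, the Bdnf gene value lay at percentile 5 of the genes tested, so it is a dim one. Only 5 of the 20 Bdnf probe sets were above the filter, and the gene value rests on those 5.

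Among the 5, the brightest went its own way. Probe set 4332246 read 10.30, 10.15 and 9.94 after Cugbp1 siRNA, 10.30, 10.21 and 9.97 after Mbnl1 siRNA and 10.57, 10.83 and 10.53 in control cells. Every siRNA array lay below every control array, and the siRNA groups overlapped each other. In a test of the level of single probe sets, which was added after the data had been seen, 4332246 fell to 70.0% of control after Cugbp1 siRNA (59.6% to 82.2%, limma adjusted p = 0.00473) and to 71.6% after Mbnl1 siRNA (61.0% to 84.0%, adjusted p = 0.00448). It was the 1 Bdnf probe set of 5 called in either comparison. Of all probe sets above the filter, 5.07% were called lower and 13.5% higher after Cugbp1 siRNA, and 6.96% and 18.4% after Mbnl1 siRNA. Between the siRNAs its level differed by -0.03 (adjusted p = 0.931), no Bdnf or Sort1 probe set was called, and 2.38% of all probe sets were.

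The other Bdnf probe sets did not show that fall. Probe set 5606529 differed from control by -0.03 after Cugbp1 siRNA and by 0.00 after Mbnl1 siRNA, and 4851999 by 0.02 and -0.01. Probe set 4938736 stood 0.32 below control after Cugbp1 siRNA and 0.29 below it after Mbnl1 siRNA, and 4680085 stood 0.28 and 0.25 above it, none of them called. Relative to the Bdnf gene value on the same array (its usage), 4332246 fell by 0.50 after Cugbp1 siRNA (SE 0.09, adjusted p = 0.0169) and by 0.44 after Mbnl1 siRNA (SE 0.09, adjusted p = 0.0182), again as the 1 called probe set of 5. Of the 158713 probe sets tested in this way, 2.33% were called lower and 1.42% higher after Cugbp1 siRNA, and 3.92% and 3.05% after Mbnl1 siRNA. Among the brightest probe set of each gene the share called lower was 6.93% after Cugbp1 siRNA and 11.2% after Mbnl1 siRNA. The part of brightness in the Bdnf result was not tested. The usage call did not hold without replicate 2 or 3 of the siRNA group or without control replicate 2 (adjusted p up to 0.0889 after Cugbp1 siRNA and 0.0814 after Mbnl1 siRNA), nor in either comparison with the filter lowered to the 50th percentile (0.0781 and 0.111), whereas the call on its level held on leaving out any 1 array.

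**Figure D3:**
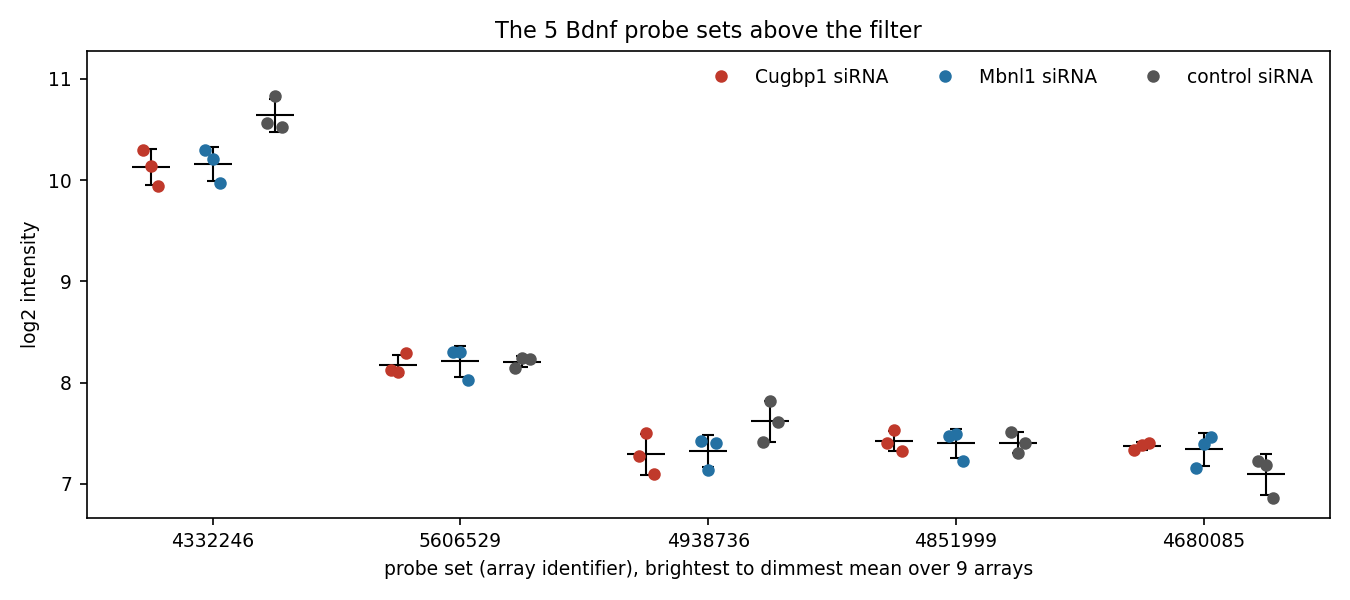
Log2 intensity of the 5 Bdnf probe sets above the filter on each array, ordered by mean level, with points for arrays, long lines for means and bars for the SD (n = 3), for Cugbp1 siRNA, Mbnl1 siRNA and control siRNA. The brightest, 4332246, stands lower after either siRNA than in control cells, by 0.51 and 0.48, and the next, 5606529, is level across the groups.

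Sort1, the co-receptor, rose slightly after Cugbp1 siRNA. Its gene value read 7.73, 7.74 and 7.69 after Cugbp1 siRNA, 7.66, 7.66 and 7.65 after Mbnl1 siRNA and 7.65, 7.54 and 7.52 in control cells. The Cugbp1 siRNA arrays lay above all others, by little, and the Mbnl1 siRNA arrays overlapped the controls. The rise over control was 0.15 on the log2 scale (SE 0.05, limma adjusted p = 0.0281), or 1.11-fold (95% interval 1.03 to 1.19). After Mbnl1 siRNA the difference was 0.08 (-0.02 to 0.18, adjusted p = 0.163), and between the siRNAs it was 0.06 (-0.04 to 0.17, adjusted p = 0.432), so that a rise after Cugbp1 siRNA alone was not shown. The call on the rise was lost without Cugbp1 siRNA replicate 2 (adjusted p = 0.0599), without control replicate 3 (0.0630) and under 3 other settings. Of all 12646 genes, 26.0% were called higher after Cugbp1 siRNA than in control, and the median difference over all genes was 0.05.

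Behind this small rise the Sort1 probe sets moved in both directions. Of the 62, 35 were above the filter and 27 were not, and 5 of the 35 (5026811 among them) reached it only through the siRNA arrays, being below it on the control mean. After Cugbp1 siRNA, 12 of the 35 were higher than control with no overlap of the arrays, 4 were lower and 19 overlapped, and the median difference was 0.28. Of all probe sets 23.7% were higher and 10.5% lower in this way. Without the 5, the counts were 10 higher and 4 lower of 30, with a median of 0.24. After Mbnl1 siRNA 5 of the 35 were higher, 6 lower and 24 overlapped, with a median of 0.03, where 28.9% of all probe sets were higher and 13.8% lower. Without the 5, there were 4 higher and 6 lower of 30, with a median of -0.02. Set directly against Mbnl1 siRNA, 6 were higher after Cugbp1 siRNA, none was lower and the median was 0.11, where 10.6% of all probe sets were higher and 10.9% lower. Both comparisons with control use the same control arrays.

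The 2 brightest Sort1 probe sets fell after either siRNA. Probe set 5319984 read 8.75, 8.70 and 8.63 after Cugbp1 siRNA, 8.71, 8.49 and 8.55 after Mbnl1 siRNA and 9.34, 9.25 and 9.61 in control cells. Its level was 61.3% of control after Cugbp1 siRNA (51.6% to 72.9%, limma adjusted p = 0.00104) and 56.9% after Mbnl1 siRNA (47.9% to 67.7%, adjusted p = 0.000192), with every siRNA array below every control. Probe set 5356923 read 8.56, 8.88 and 8.68 after Cugbp1 siRNA, 8.83, 8.46 and 8.60 after Mbnl1 siRNA and 9.28, 9.12 and 9.46 in control cells. It too stood below control on all 6 siRNA arrays, at 66.9% (55.3% to 80.9%, adjusted p = 0.00635) after Cugbp1 siRNA and 63.5% (52.5% to 76.8%, adjusted p = 0.00181) after Mbnl1 siRNA.

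Sort1 probe set 4379518 read 8.10, 7.96 and 7.59 after Cugbp1 siRNA, 8.08, 7.91 and 7.92 after Mbnl1 siRNA and 8.55, 8.41 and 8.39 in control cells. In contrast, probe set 5026811 read 7.43, 7.44 and 7.22 after Cugbp1 siRNA, 7.50, 7.16 and 7.26 after Mbnl1 siRNA and 6.81, 6.58 and 6.80 in control cells. On all siRNA arrays 4379518 lay below the controls and 5026811 above them. Since 5026811 was kept only because it is high after the siRNAs, no weight is put on its calls. By the test of single levels, 3 Sort1 probe sets of 35 fell and 4 rose after Cugbp1 siRNA, where 5.07% of all probe sets fell and 13.5% rose, and 4 fell and 2 rose after Mbnl1 siRNA, where 6.96% fell and 18.4% rose. The rises include 5026811 in both comparisons.

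Those 4 Sort1 probe sets also departed from the rest of the gene. In usage, 4 of 35 fell and 1 rose relative to the Sort1 gene value after Cugbp1 siRNA, where 2.33% of all probe sets fell and 1.42% rose, and 5 fell and 1 rose after Mbnl1 siRNA, where 3.92% fell and 3.05% rose. Probe set 5319984 fell by 0.85 after Cugbp1 siRNA (limma adjusted p = 0.00335) and by 0.90 after Mbnl1 siRNA (adjusted p = 0.00160). Probe set 5356923 fell by 0.73 after Cugbp1 siRNA (adjusted p = 0.0105) and by 0.74 after Mbnl1 siRNA (adjusted p = 0.00639), and 4379518 by 0.71 after Cugbp1 siRNA (adjusted p = 0.00760) and by 0.56 after Mbnl1 siRNA (adjusted p = 0.0136). Probe set 4948327 also fell, by 0.58 and 0.69, 5395004 fell by 0.45 after Mbnl1 siRNA, and the 1 called higher was 5026811, at 0.49 after each siRNA.

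Between the siRNAs no Sort1 or Bdnf probe set differed in usage by limma, 4 of the 35 of Sort1 and none of the 5 of Bdnf having an unadjusted p under 0.05, and 0.0277% of all probe sets were called. The usage calls on 5319984 and 5356923 held on leaving out any 1 array, and that on 4379518 did so after Cugbp1 siRNA. The call on 5026811 after Cugbp1 siRNA was lost on leaving out any of the 9 arrays, and those on 4948327 and 5395004 depended on 3 to 6 arrays. As for Bdnf, the strongest falls were in the brightest probe sets, and the part of brightness was not tested.

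**Figure D4:**
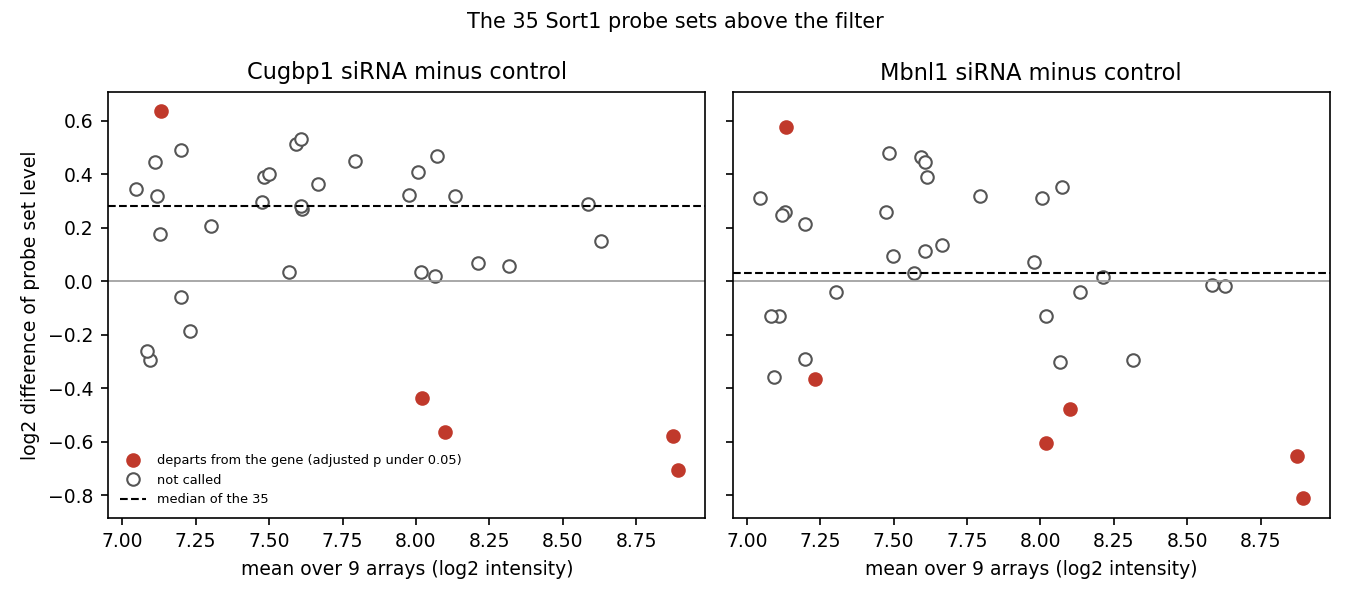
Log2 difference from control of the 35 Sort1 probe sets above the filter after each of the siRNAs, plotted over their mean level over 9 arrays. Filled points departed from the gene value (usage, adjusted p under 0.05) and the dashed line is the median of the 35, at 0.28 after Cugbp1 siRNA and 0.03 after Mbnl1 siRNA; the 2 brightest probe sets, at right, lie lowest in both panels.

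The surroundings of the 3 genes were read from a list of 56 other genes of neurotrophin signalling, of which 44 were measured with at least 3 probe sets above the filter. After Cugbp1 siRNA 11 of the 44 rose, 4 fell and 29 were not called. The rises are a share of 25%, where 26.0% of all 12646 genes rose, and 12.7% of all genes fell. After Mbnl1 siRNA 15 rose (34.1%), 6 fell and 23 were not called, where 26.9% of all genes rose and 14.6% fell. Whether the list differs from other genes was not tested. Its median difference was 0.01 after Cugbp1 siRNA and 0.05 after Mbnl1 siRNA, beside 0.05 and 0.04 for all genes. The split after Cugbp1 siRNA was 10 rises and 7 falls when quantile normalisation was repeated, 9 and 8 when arrays were centred on the median of the probe sets above the filter, and 14 and 4 when they were centred on the median of all probe sets.

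Of the other ligands and receptors few were measured. None of the 6 probe sets of the ligand gene Ntf5 was above the filter. Ntrk2, which encodes the BDNF receptor TrkB, read 7.70, 7.60 and 7.28 after Cugbp1 siRNA, 7.72, 7.77 and 7.49 after Mbnl1 siRNA and 7.93, 7.86 and 7.93 in control cells. All siRNA arrays lay below the controls. It fell by 0.38 after Cugbp1 siRNA (SE 0.10, limma adjusted p = 0.0181), and after Mbnl1 siRNA the difference was -0.25 (adjusted p = 0.0798). Its gene value rests on 3 of 34 probe sets, and without the filter on dim signal the difference after Cugbp1 siRNA was -0.15 (adjusted p = 0.101), and without Cugbp1 siRNA replicate 3 its adjusted p was 0.0574. Ntrk3, the gene of TrkC, had 1 of 28 probe sets above the filter and was not tested.

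The relatives of sortilin moved in different directions. Sorcs2, a Vps10p-domain receptor that also binds proneurotrophins, read 8.88, 8.88 and 8.99 after Cugbp1 siRNA, 8.84, 8.74 and 8.86 after Mbnl1 siRNA and 8.65, 8.73 and 8.63 in control cells. It rose by 0.25 after Cugbp1 siRNA (SE 0.05, limma adjusted p = 0.00488) and by 0.14 after Mbnl1 siRNA (SE 0.05, adjusted p = 0.0438), a call lost under 12 of 19 other settings for Mbnl1 siRNA. Sorl1, a sorting receptor of the amyloid precursor protein, fell by 0.18 after Cugbp1 siRNA (adjusted p = 0.0138) and by 0.22 after Mbnl1 siRNA (adjusted p = 0.00512), the call after Cugbp1 siRNA being lost without control replicate 1 (adjusted p = 0.0562). With no filter on dim signal both calls on Sorl1 were lost, at -0.10 after Cugbp1 siRNA (adjusted p = 0.239) and -0.14 after Mbnl1 siRNA (adjusted p = 0.0919). Sorcs1 differed from control by -0.19 after Cugbp1 siRNA (adjusted p = 0.0519) and Sorcs3 by -0.01 (adjusted p = 0.957). None of the 4 was called between the siRNAs.

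Among the 9 measured adaptors that bind the cytoplasmic part of p75NTR or act just below it, 6 rose after Cugbp1 siRNA, 5 rose after Mbnl1 siRNA, none fell, and none was called between the siRNAs. Of all genes, 26.0% rose and 12.7% fell after Cugbp1 siRNA, and 26.9% rose and 14.6% fell after Mbnl1 siRNA. Between the siRNAs 4.27% were higher and 5.07% lower. Whether the adaptors differ from other genes was not tested. Under the other scalings the rises numbered 4 to 6 in each comparison. With no filter on dim signal 3 of 10 rose after Cugbp1 siRNA and 4 after Mbnl1 siRNA, and with the filter at the 50th percentile 5 of 10 rose and 1 fell in each. Zfp110, the zinc finger protein NRIF that binds p75NTR, read 8.56, 8.64 and 8.78 after Cugbp1 siRNA, 8.52, 8.35 and 8.42 after Mbnl1 siRNA and 8.13, 8.29 and 8.25 in control cells. It rose by 0.44 after Cugbp1 siRNA (SE 0.07, limma adjusted p = 0.00143) and by 0.21 after Mbnl1 siRNA (adjusted p = 0.0322), the call after Mbnl1 siRNA being lost without Mbnl1 siRNA replicate 1, control replicate 1 or control replicate 3 and under 7 of 19 settings in all. The kinase gene Ripk2 rose by 0.27 after Cugbp1 siRNA and by 0.38 after Mbnl1 siRNA, and Maged1, the adaptor NRAGE, by 0.21 and 0.18. The ubiquitin ligase gene Traf6 rose by 0.22 after Cugbp1 siRNA, Zfp369, a close relative of Zfp110, by 0.17, and the small GTPase gene Rhoa by 0.11, a call that was lost on leaving out any 1 array. The call on Zfp369 after Cugbp1 siRNA was lost without Cugbp1 siRNA replicate 2 or any 1 control array (adjusted p up to 0.149). After Mbnl1 siRNA Zfp369 rose by 0.28 and Rhoa by 0.19 (limma adjusted p = 0.00329 and 0.00479). Both of these calls held under all 19 other settings.

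Of the 13 measured genes of Trk signalling, 4 rose and 1 fell after Cugbp1 siRNA, and 6 rose after Mbnl1 siRNA. The shares of all genes were 26.0% rising and 12.7% falling after Cugbp1 siRNA, and 26.9% rising after Mbnl1 siRNA. Sos1, an exchange factor of Ras, rose by 0.27 after Cugbp1 siRNA and by 0.34 after Mbnl1 siRNA, the docking protein gene Gab1 by 0.25 and 0.36, and the adaptor gene Grb2 by 0.24 and 0.25. Plcg1, a phospholipase that Trk receptors activate, rose by 0.21 and 0.18. Frs2, a docking protein of Trk receptors, rose by 0.36 after Mbnl1 siRNA (limma adjusted p = 0.00739), where after Cugbp1 siRNA it was not called. Shc3, an adaptor gene of neurons, fell by 0.49 after Cugbp1 siRNA (SE 0.12, adjusted p = 0.0121), with values of 8.00, 7.43 and 7.43 after Cugbp1 siRNA, 7.75, 7.77 and 7.81 after Mbnl1 siRNA and 8.07, 8.15 and 8.12 in control cells. The first of the Cugbp1 siRNA arrays lay close to the controls, and without Cugbp1 siRNA replicate 3 the adjusted p was 0.0511. The Shc3 gene value rests on 3 of 14 probe sets, and with the filter at the 50th percentile the difference was -0.25 (adjusted p = 0.0385). The calls after Cugbp1 siRNA on Gab1 (without Cugbp1 siRNA replicate 3 or control replicate 1) and Grb2 (without Cugbp1 siRNA replicate 2 or 3 or control replicate 3) were also lost, at adjusted p up to 0.0578 and 0.0688. Of 6 neuron markers 4 were measured, with summed intensities of 5106 to 5471 after Cugbp1 siRNA, 5558 to 6051 after Mbnl1 siRNA and 5243 to 5340 in control cells, and their part was not tested.

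Directly between the siRNAs, 1 of the 44 genes (Ncstn) was higher after Cugbp1 siRNA and 3 (Plat, Adam10 and Aph1c) were lower, where 4.27% of all genes were higher and 5.07% lower. Plat, the gene of tissue plasminogen activator, which releases the proBDNF-cleaving protease plasmin, read 8.25, 8.38 and 8.31 after Cugbp1 siRNA, 9.10, 9.07 and 9.01 after Mbnl1 siRNA and 8.42, 8.32 and 8.33 in control cells. It rose by 0.70 after Mbnl1 siRNA (SE 0.05, limma adjusted p = 1.49e-05), differed by -0.05 from control after Cugbp1 siRNA, and was 0.75 lower after Cugbp1 than after Mbnl1 siRNA (a difference of -0.75, adjusted p = 3.20e-05).

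Ncstn, which encodes the nicastrin subunit of the γ-secretase that cuts p75NTR in the membrane, moved the other way. It read 9.54, 9.64 and 9.60 after Cugbp1 siRNA, 9.28, 9.29 and 9.31 after Mbnl1 siRNA and 9.51, 9.54 and 9.64 in control cells. It fell by 0.27 after Mbnl1 siRNA (limma adjusted p = 0.00163) and was 0.30 higher after Cugbp1 than after Mbnl1 siRNA (adjusted p = 0.00354). The calls on Plat and Ncstn held under all 19 other settings. Adam10, a protease that sheds membrane proteins, and the γ-secretase gene Aph1c differed by -0.22 and -0.23 between Cugbp1 and Mbnl1 siRNA, calls that were lost under 8 and 5 of the 19 settings. Pcsk5, a convertase of precursor proteins, fell by 0.23 after each siRNA, and after Mbnl1 siRNA the co-receptor genes Lingo1 and Rtn4r of p75NTR fell by 0.27 and 0.22, and the metalloprotease gene Mmp9 by 0.25. The call on Rtn4r was lost on leaving out 3 of the 9 arrays in turn, that on Lingo1 on 5 and that on Mmp9 on 7.

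**Figure D5:**
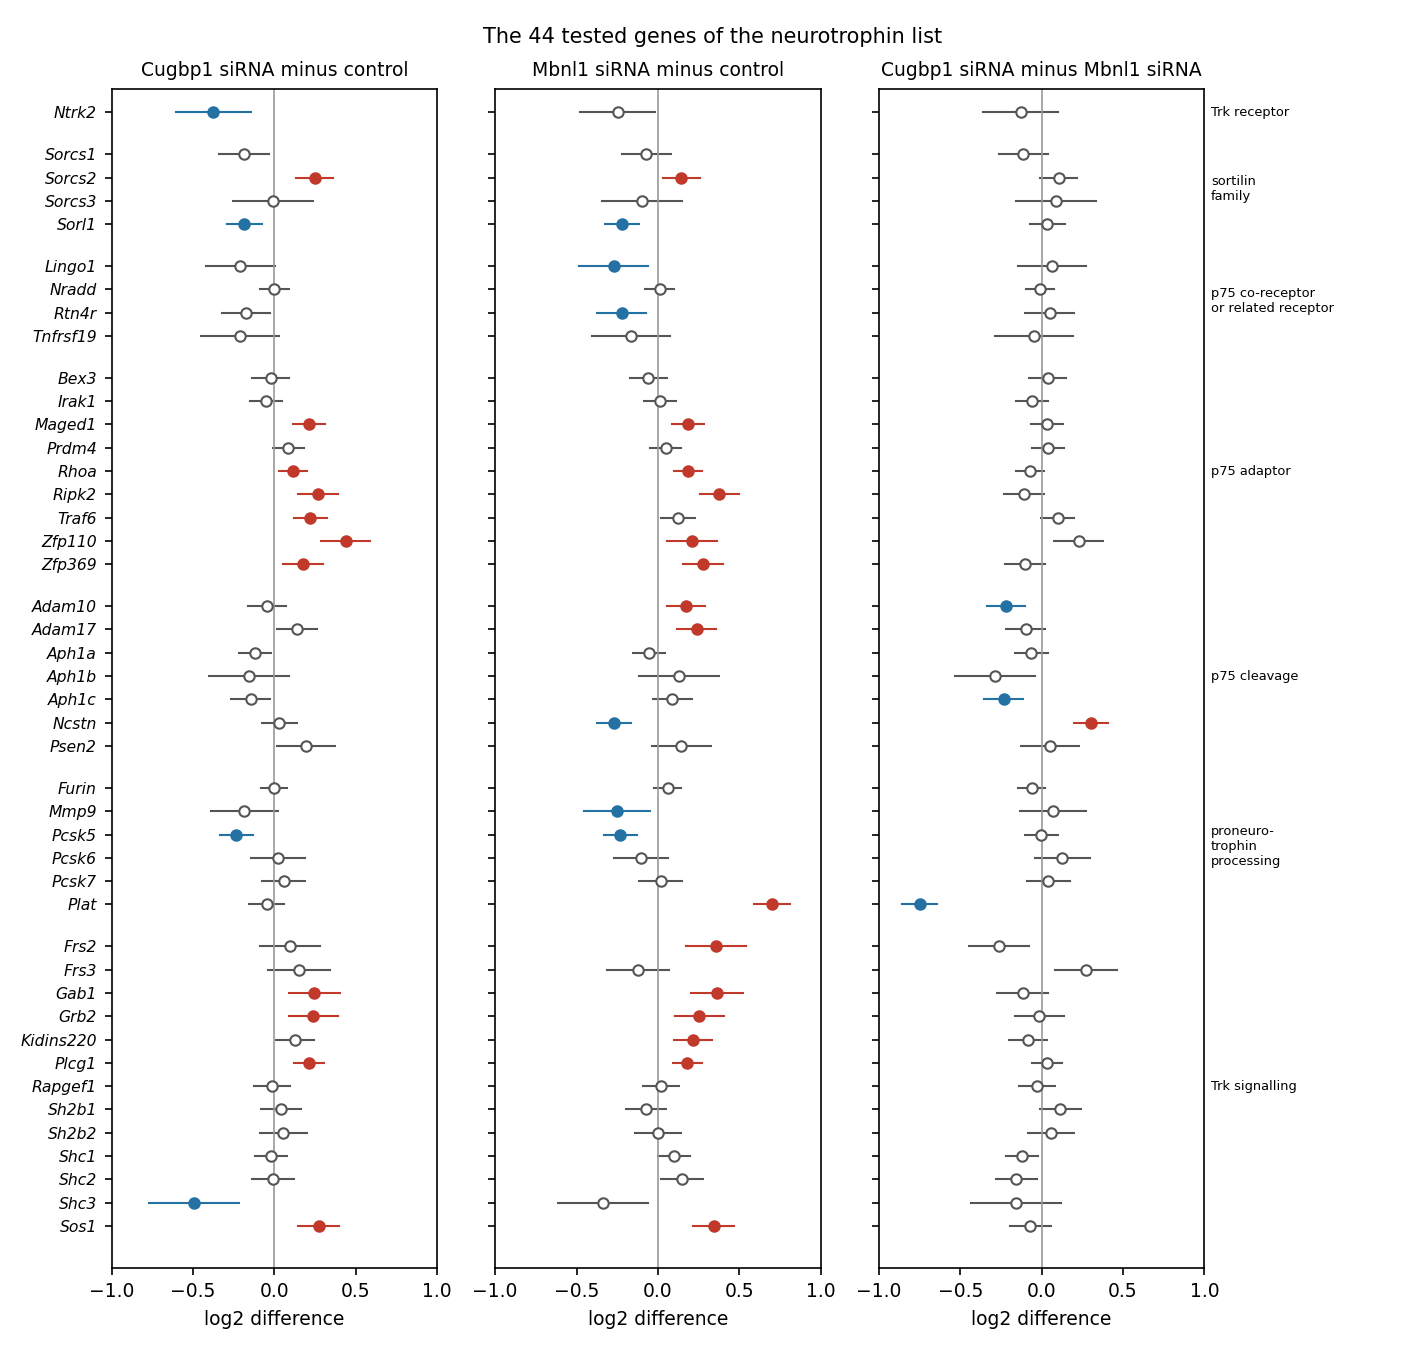
Log2 differences of the 44 measured genes of the neurotrophin list, grouped by role, for each siRNA against control and, in the last panel, Cugbp1 against Mbnl1 siRNA; bars are 95% intervals, red points were called higher, blue points lower (adjusted p under 0.05) and open points not called. Of the 44, 11 rose and 4 fell in the first panel, 15 rose and 6 fell in the second, and in the third Plat stands apart at -0.75.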

How the data were processed

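Total RNA of C2C12 cells was hybridised to whole-transcript exon arrays (100 ng per sample, per the labels' protocols). The authors deposited 1 linear intensity per probe set and array, made with RMA in Affymetrix Expression Console and genome build mm9, per the submitters' processing notes. The sources used here do not give their versions. These intensities were used as deposited, after taking log2. Nothing in the labels says that the replicates of a group were separate cultures, so the p-values cover the spread of these 9 arrays and may cover technical spread alone.

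The platform annotation gave 1 symbol to 316997 probe sets (updated through RefSeq synonyms), gave several to 6571, and left 871987 unlisted. Probe sets were kept at a mean over 9 arrays of at least the 75th percentile (log2 7.00, intensity 128). A gene value was the Tukey median polish of at least 3 kept probe sets. The 12646 genes were fitted in limma 3.58.1 (R 4.3.3) with all 9 arrays in 1 fit and Benjamini-Hochberg adjustment over genes, and called at an adjusted p under 0.05. Usage, a probe set minus its gene value, went through limma (eBayes with trend) over 158713 probe sets of genes with at least 4 kept. The level of single probe sets was tested likewise over 168803. No pair of arrays was identical. Steps were tested on simulated data.

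The members and gene lists were chosen with earlier results of these data known. Named were the members, the siRNA targets, up to 10 called genes of the neurotrophin list per comparison by size, its ligands, Trk receptors and sortilin relatives, and the 5 genes most correlated with Ngfr; Maged1, Plcg1, Rhoa and Rtn4r were named after their values were seen. Of other cell type markers, 4 of 6 neuron, 4 of 5 macrophage and 2 of 4 endothelial genes were measured. Of these 1, 2 and 1 fell after Cugbp1 siRNA, with none rising, and 1, 2 and 1 fell after Mbnl1 siRNA, with 2, 1 and none rising. Of all genes, 12.7% fell and 26.0% rose after Cugbp1 siRNA, and 14.6% fell and 26.9% rose after Mbnl1 siRNA. Alternatives changed the scaling, filter, summary, fit, replicate block and arrays left out.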

Additional observations from a re-analysis of the deposited data

How the results depend on the processing

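Ngfr was higher after Cugbp1 siRNA in every alternative run, by 0.81 to 0.99 over control and 0.79 to 1.00 over Mbnl1 siRNA, the lowest of the second (0.79) with the plain mean of the probe sets. The gene value of Bdnf was called in none. The rise of Sort1 after Cugbp1 siRNA (0.15) lost its call with only the arrays of the groups compared (0.15, limma adjusted p = 0.0634), with a mean-variance trend and robust prior (0.15, 0.0713) and with arrays centred on the median of the kept probe sets (0.11, 0.0709); on leaving out 1 array it ranged from 0.14 to 0.21. After Cugbp1 siRNA the 11 rises and 4 falls of the neurotrophin list became 7 falls with quantile normalisation repeated, 8 with it repeated over kept probe sets or with centring on them, and 7 rises and 2 falls with no filter. The 3 genes lower after Cugbp1 than after Mbnl1 siRNA became 1 with no filter and 5 with the mean. Usage calls became 3 for Sort1 after Cugbp1 siRNA and 2 for Bdnf after Mbnl1 siRNA with a filter at the 50th percentile, where 4332246 was called in neither comparison with control, and 2 for Bdnf after each siRNA with diffSplice, which also called 4680085.

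On leaving out 1 array, list rises ranged from 8 to 13 and falls from 3 to 6 after Cugbp1 siRNA, and from 12 to 17 and 3 to 8 after Mbnl1 siRNA, and 1 to 4 genes were lower after Cugbp1 than after Mbnl1 siRNA. The lowest of these were reached without control replicate 1 (3 falls after Mbnl1 siRNA) and without Cugbp1 siRNA replicate 2 or Mbnl1 siRNA replicate 1 or 3 (1 gene lower between the siRNAs). Usage calls ranged from 0 to 1 for Bdnf in each comparison with control, from 3 to 4 for Sort1 after Cugbp1 siRNA and from 2 to 7 after Mbnl1 siRNA. Of 40 calls on list genes, 25 held on leaving out any array and 23 under all 19 alternatives; of 13 usage calls 5 held throughout, and of 15 calls on single levels 6. No called value changed sign. The causes were not tested.

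Same-numbered arrays deviated together little (correlations -0.10 to 0.12 over 9 pairs, against -0.13 to 0.09 for different numbers). Such correlations cannot tell whether same-numbered arrays shared a culture or batch, and the labels do not say. With a replicate block the Sort1 rise stayed at 0.15 (adjusted p = 0.0397) and list rises and falls were 11 and 5 after Cugbp1 siRNA and 15 and 7 after Mbnl1 siRNA. Dim probe sets limit the rest: 15 of 20 of Bdnf and 27 of 62 of Sort1 were below the filter.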
